A study of Homo sapiens with 6 samples.

Results

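The EGR, NR4A and IER immediate-early genes, together with MYC, were followed as a group of 10 genes among the 30267 genes of the deposited table. The members were taken by symbol: EGR1, EGR2, EGR3, NR4A1, NR4A2, NR4A3, IER2, IER3, IER5 and MYC, and all 10 were listed. The libraries came from SW839, an established human renal cell carcinoma (RCC) line, grown in medium with fetal bovine serum. The shRNF25 group (n = 3) carried a short hairpin against RNF25, an E3 ubiquitin ligase, and the shControl group (n = 3) carried the pLKO vector. By the study's methods, stable lines were made by lentiviral infection and puromycin selection in both groups, and the library names show 1 hairpin, so RNF25 loss and off-target silencing by that hairpin cannot be told apart. Library names follow 1 pattern in shRNF25 and 2 patterns in shControl. Because the treatment field of the controls mentions the RNF25 hairpin plasmid as well, samples were grouped by title. No label says whether replicates came from separate cultures, so p-values measure the spread between these libraries, which may be technical.

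Immediate-early genes are transcribed within minutes of a stimulus such as serum, a growth factor, a cytokine or stress, without new protein synthesis, and their short-lived transcripts then decline. EGR1, EGR2 and EGR3 are zinc finger transcription factors, NR4A1, NR4A2 and NR4A3 are orphan nuclear receptors, and IER2, IER3 and IER5 are small proteins named for their early induction. Serum response factor (SRF), which binds CArG boxes in promoters, ternary complex factors activated by ERK, CREB and NF-κB drive different subsets of them. MYC encodes the transcription factor that pairs with MAX and promotes cell growth.

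Sequence elements known from this mode of regulation are shown first, as context for the values, and their part in the values was not tested. RefSeq promoter windows (GRCh38.p14) were read for 6 of the 10 members, EGR1, EGR2, NR4A1, NR4A3, IER2 and IER5, as 9 windows, and IER3, NR4A2, EGR3 and MYC were not searched. The windows cover the 250 bases before each annotated start, and motifs were sought on both strands. A CArG box was found in 2 of these 9 windows, 1 of EGR1 and 1 of EGR2, and in 1.16% of all 35116 windows. EGR1 had 2 boxes, which began 105 and 83 bases before the start of transcription, and EGR2 had 1 box at 71 bases, in 1 of its 3 windows. CArG boxes are in capitals in both windows, the first at chr5:138465229-138465478 on the plus strand and the second at chr10:62816367-62816616 on the minus strand.
EGR1: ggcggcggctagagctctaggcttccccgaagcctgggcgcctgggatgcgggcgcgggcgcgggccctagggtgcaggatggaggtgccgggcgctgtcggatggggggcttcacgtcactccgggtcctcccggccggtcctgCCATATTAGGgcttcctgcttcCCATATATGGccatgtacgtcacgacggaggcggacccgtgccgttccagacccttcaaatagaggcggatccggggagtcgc
EGR2: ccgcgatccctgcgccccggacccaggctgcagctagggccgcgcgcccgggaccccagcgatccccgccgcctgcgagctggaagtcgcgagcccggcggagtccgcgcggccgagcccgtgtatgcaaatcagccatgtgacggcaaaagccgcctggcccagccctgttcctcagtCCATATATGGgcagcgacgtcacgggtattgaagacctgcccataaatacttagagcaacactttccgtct

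The cAMP response element TGACGTCA, the EGR site GCGGGGGCG, the NR4A monomer site AAAGGTCA and the κB site, searched by its consensus of 10 positions, were not found in any of the 9 windows, and they were present in 1.65%, 4.72%, 1.05% and 5.21% of all windows. The E-box CACGTG, which MYC and MAX bind, was found in 1 of the 9 windows, that of another EGR2 start, and in 6.34% of all windows. These matches describe letters in short windows and do not show where a factor binds.

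AUUUA motifs (ATTTA in the genomic letters), a mark of rapidly decaying transcripts, were then counted in the 3′ UTR of the GENCODE 29 transcript with the longest coding sequence. They were found in 9 of the 10 members, IER2 being the one without, and in 67.2% of the 13050 tested genes with such a UTR. The density was 8.40 per kilobase in MYC, with 4 motifs in 476 bases, and 8.14 per kilobase in IER3, with 6 motifs in 737 bases. A density at least as high was found in 2.15% of the tested genes for MYC and in 2.39% for IER3. The other members ranged from 0.810 per kilobase in EGR1 to 5.39 in NR4A1, and the median over the tested genes was 1.5. For IER3 and IER5 the stretch of 29 bases with the most motifs is shown, with ATTTA in capitals, at chr6:30743648-30743676 on the minus strand and chr1:181092449-181092477 on the plus strand of GRCh38.
IER3: aattaatATTTAtatgtATTTAtgtacgt
IER5: tcctttATTTATTTATTTATTTAattata

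Library depth ran from 18647460 to 19943154 reads on genes. Pearson's r across genes was 0.976 to 0.988 for pairs of shControl libraries and 0.994 for every shRNF25 pair. The chi-square per gene between libraries, which is near 1 for counting noise alone, was 143.5 and 136.6 between shControl replicate 1 and replicates 2 and 3, against 27.45 between replicates 2 and 3 and 4.46 to 6.64 within shRNF25, so shControl replicate 1 stood apart. RNF25, the target of the hairpin, fell from 588.1 ± 92.0 (SD, n = 3) to 241.6 ± 25.7 (SD, n = 3) in normalized count, to 41.1% of the control mean. Of the 15 renal epithelial and RCC markers, 11 were tested, and KRT8, KRT18, KRT7 and KRT19 were abundant while PAX8 was low (118 to 140.3 in shControl) and CA9 was at 1.85 to 50.7 in all libraries. In that list VIM was higher and KRT7 lower in shRNF25. Of the leukocyte markers, 5 of 8 were below 10 in every library, and the sum of the 8 was 66.3 to 79.0 in shControl and 72.4 to 102.1 in shRNF25, with ITGAM called higher. Of 6 endothelial markers 3 were tested, with KDR called higher and CDH5 lower (from 73.0, 102.6 and 198.6 to 3.64, 8.31 and 5.72). Their sum was 497.6 to 700.5 in shControl and 497.8 to 650.6 in shRNF25. PECAM1, not called, was at 384.7, 349.9 and 466.3 in shControl and at 549.4, 399.0 and 407.0 in shRNF25. Of 7 fibroblast markers 2 were tested and none was called by limma, edgeR or DESeq2, with 1 lower at an unadjusted p below 0.05. The sum of these 7 was 1108 to 1293 in shControl and 876.4 to 1024 in shRNF25. The part of other cells in the members' levels was not tested.

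Values are normalized counts, in which the reads of a library are divided by its scaling factor, and fold changes are differences of log2(normalized count + 1) fitted with limma over the 16554 genes that reached a normalized count of 10 in 3 or more libraries. Calls of higher or lower required a Benjamini-Hochberg adjusted p below 0.05 together with a change of 1.5-fold or more. These thresholds are given in the study's methods, and its heatmap of NF-κB genes instead used a log2 fold change above 1. Of the 10 members, 8 passed the filter, and EGR3 and NR4A3 did not. In shRNF25, 2 of the 8 were called lower, IER3 and MYC, where 7.1% of all tested genes were. None was called higher (limma, 0 members at an unadjusted p below 0.05 in this direction, 0 with edgeR and 0 with DESeq2), where 8.65% of all tested genes were. The median log2 fold change of the 8 members was 0.05, beside -0.01 over all tested genes. With 8 genes these counts do not set the members apart from the background. In bulk RNA, fewer cells with a transcript and less of it per cell cannot be told apart.

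**Figure D1:**
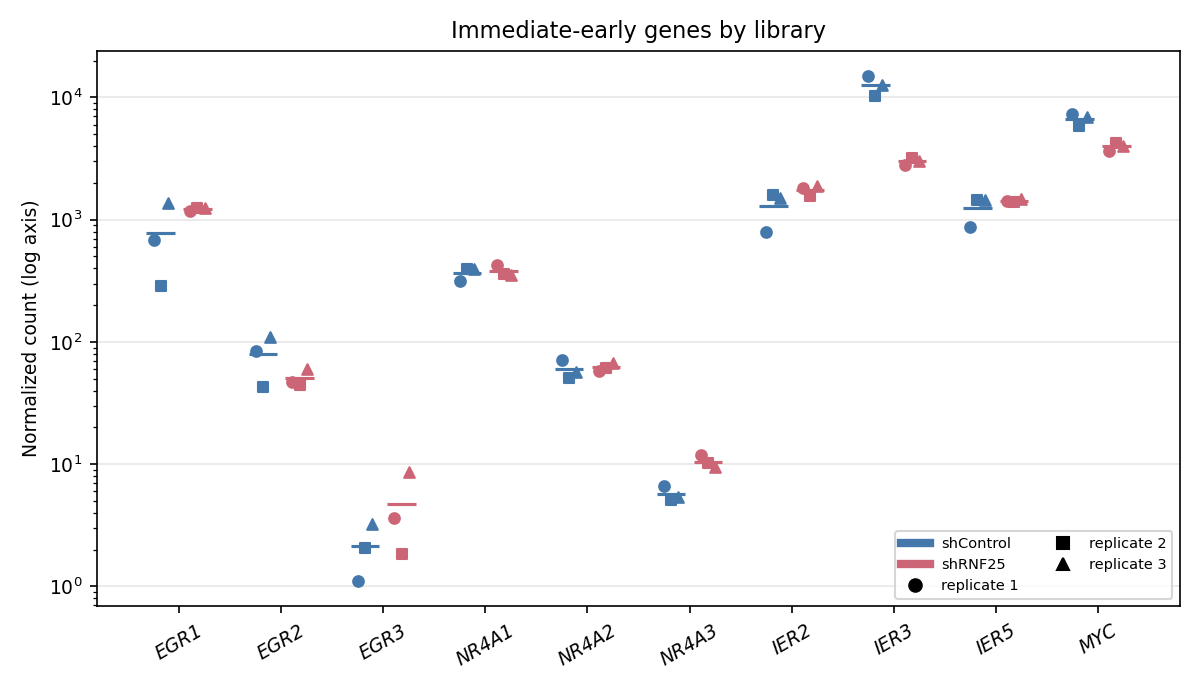
Normalized count (log axis) of each of the 10 genes in every library, with shControl in blue, shRNF25 in red, a marker shape for each replicate and a bar at the group mean (n = 3). The groups are clearly separate for IER3 and MYC, while EGR1 spans 284 to 1366 in shControl and 1187 to 1256 in shRNF25.

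IER3 was the member with the highest level and the largest change. IER3 (IEX-1) is an early response protein with known roles in cell survival and is a known target of NF-κB. The gene is at chromosome 6, 30743199 to 30744554 on the minus strand (ENSG00000137331.11, GENCODE 29, GRCh38). In order of replicate number, its normalized count was 14971, 10334 and 12739 for shControl and 2821, 3176 and 3045 for shRNF25. The highest knockdown library thus stayed far under the lowest control library. The mean went from 12681 ± 2319 (SD, n = 3) to 3014 ± 179.5 (SD, n = 3), that is to 23.8% of control. This is a log2 fold change of -2.06 (standard error 0.141, 95% interval -2.38 to -1.74), with an adjusted p of 3.37e-05 from limma. The exact permutation test of the 6 values gave p = 0.1, two-sided, the smallest that 3 libraries against 3 allow. Without shControl replicate 1 the log2 fold change was -1.93, and the fall was called under each of the 16 other settings. IER3-AS1, an antisense transcript that overlaps exons of IER3, did not exceed 2.16 in any library.

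MYC was the second most abundant member and the other one that fell. MYC lies on chromosome 8 (ENSG00000136997.17). The normalized count was 7364, 5884 and 6874 in the 3 shControl libraries and 3664, 4256 and 4029 in the 3 shRNF25 libraries. No shRNF25 library reached the lowest shControl library. The mean fell from 6708 ± 754 (SD, n = 3) to 3983 ± 298.9 (SD, n = 3), to 59.4% of control. The log2 fold change was -0.75 (standard error 0.119, 95% interval -1.02 to -0.48), with an adjusted p of 0.00269 from limma, and the exact permutation p was 0.1. This fall was smaller than a factor of 2, so it was not called when a 2-fold change was required, and the adjusted p under the 16 other settings was at most 0.0242. Groups that do not overlap were found for these 2 of the 8 tested members, both with shRNF25 lower, and for 42.5% of all tested genes (20.7% with shRNF25 higher and 21.8% with shRNF25 lower).

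**Figure D2:**
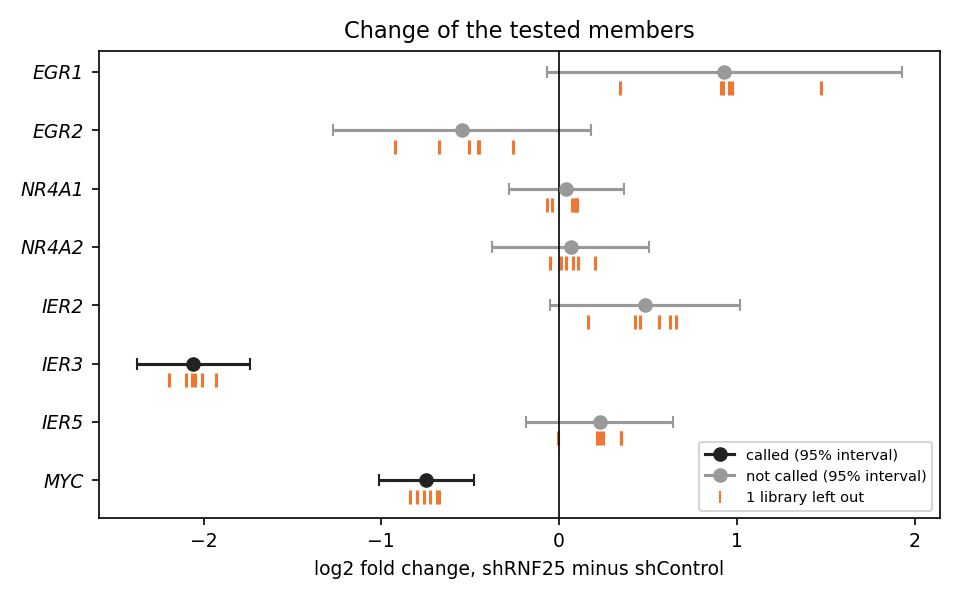
Log2 fold change of the 8 tested members (shRNF25 minus shControl) with its 95% interval from limma, black where called and grey where not, and orange ticks for the fits that each left out 1 library. IER3 at -2.06 and MYC at -0.75 lie wholly below 0, whereas the ticks of EGR1 run from 0.34 to 1.47 and those of EGR2 from -0.93 to -0.26.

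The other members of the IER family did not follow IER3. IER2, a nuclear regulator of transcription, lies at chromosome 19, 13150415 to 13154908, plus strand. Its normalized count was 799.2, 1586 and 1519 in shControl and 1802, 1558 and 1874 in shRNF25. The low value was that of shControl replicate 1, while replicate 2 lay within the range of shRNF25 and replicate 3 just under it. On the log2 scale the fold change was 0.48 (95% interval -0.05 to 1.02, adjusted p = 0.179 from limma), and it was 0.16 without shControl replicate 1. An antisense transcript, AC011446.2, overlaps exons of IER2 and was not analysed here, and the strand setting of the counting is not given in the sources used here.
IER5, an early response gene whose protein acts on heat shock factor HSF1, lies at chromosome 1, 181088712 to 181092899, plus strand. It stood at 878.8, 1438 and 1444 in shControl and at 1432, 1398 and 1469 in shRNF25. Here too shControl replicate 1 alone was low. The log2 fold change of 0.23 (95% interval -0.18 to 0.64, adjusted p = 0.407 from limma) became -0.01 without that library. The intervals allow a change of IER2 between 0.966-fold and 2.02-fold, and of IER5 between 0.880-fold and 1.56-fold.

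EGR1 had the widest spread between control libraries of the 8 tested members. EGR1 is the archetypal SRF and ERK responsive transcription factor, at chromosome 5, 138465490 to 138469315, plus strand. Control replicates 1, 2 and 3 gave normalized counts of 684.3, 284.2 and 1366, a range of 4.81-fold. In shRNF25 it was 1187, 1237.5 and 1256, a range of 1.06-fold. The shRNF25 values lie above 2 of the control libraries and below the third. A log2 fold change of 0.93 resulted (standard error 0.442, 95% interval -0.07 to 1.93), with an adjusted p of 0.167 from limma and an exact permutation p of 0.4. Which control library was left out decided the value: it was 0.34 (adjusted p = 0.388) without shControl replicate 2 and 1.47 (adjusted p = 0.0131, called higher) without replicate 3. With all 6 libraries EGR1 was also called higher with array weights by group (adjusted p = 0.0336), and not by edgeR (0.275) or DESeq2 (0.477). The replicate block called it higher as well (adjusted p = 0.0462), but this block pairs libraries that share only a number. The call for EGR1 thus depended on the model, and the 95% interval ran from 0.955-fold to 3.80-fold.

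EGR2, known for its part in myelination and in lymphocyte restraint, spans chromosome 10, 62811996 to 62919900, minus strand. The normalized count was 84.0, 43.1 and 110.1 in shControl and 47.4, 44.3 and 60.1 in shRNF25. As for EGR1, replicate 2 was the lowest and replicate 3 the highest control library. EGR2 had a log2 fold change of -0.55 (95% interval -1.27 to 0.18, adjusted p = 0.257 from limma), and without shControl replicate 2 it was called lower, at -0.93 with an adjusted p of 0.0328.
EGR3, on chromosome 8, was near the detection limit, with 1, 2 and 3 reads in shControl and 4, 2 and 9 reads in shRNF25. No fold is given at these counts. AC055854.1, which overlaps EGR3 on the other strand, had up to 15.7 normalized counts.

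The SD of log2 values between the shControl libraries was 1.13 for EGR1, 0.69 for EGR2, 0.55 for IER2 and 0.41 for IER5. A larger control SD was found for 1.05% of all tested genes in the case of EGR1, and for 0.122% of the 4914 genes within 2-fold of its mean level. For EGR2, IER2 and IER5 the share of all tested genes was 6.13%, 11.3% and 23.3%. IER3 (0.27), NR4A2 (0.26), NR4A1 (0.19) and MYC (0.17) lay near or below the median control SD of 0.26. In shRNF25 the SD was 0.04 for EGR1 and IER5 and at most 0.23 among the 8 genes, where the median over all tested genes was 0.10. The labels give no culture or harvest times, and the part of handling in this spread was not tested.

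**Figure D3:**
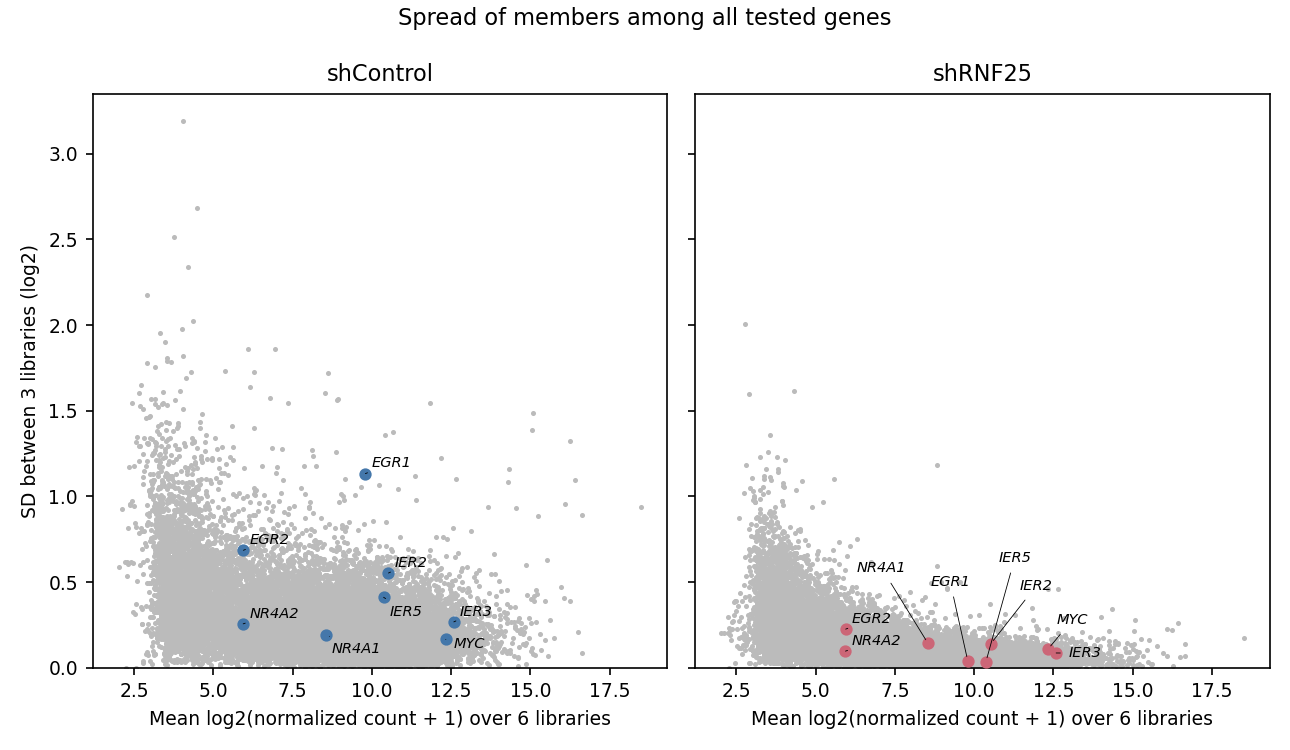
SD of log2(normalized count + 1) between the 3 libraries of shControl (left) and of shRNF25 (right) against the mean log2 level over 6 libraries, for all 16554 tested genes in grey and the 8 tested members in color. EGR1 stands at an SD of 1.13 in shControl and 0.04 in shRNF25.

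The NR4A receptors showed no change that passed the test. NR4A1 (NUR77), known in apoptosis and inflammation, lies at chromosome 12, 52022832 to 52059507, plus strand. The normalized count was 313.9, 394.0 and 398.3 in shControl and 422.8, 361.1 and 351.7 in shRNF25. The groups overlap almost fully. The log2 fold change was 0.04 (95% interval -0.28 to 0.36, adjusted p = 0.864 from limma), so that changes beyond 0.823-fold and 1.29-fold lie outside the interval.
NR4A2 (NURR1), known for dopamine neuron development, lies at chromosome 2, 156324432 to 156342348, minus strand. It stood at 71.9, 50.3 and 57.2 in shControl and at 58.3, 61.0 and 66.7 in shRNF25, with overlapping groups. Its log2 fold change was 0.06 (95% interval -0.38 to 0.51, adjusted p = 0.843 from limma).
NR4A3 (NOR1), at chromosome 9, 99821855 to 99866891, plus strand, was low, with 6, 5 and 5 reads in shControl and 13, 11 and 10 in shRNF25. Its normalized counts of 5.13 to 6.63 in shControl and 9.53 to 11.8 in shRNF25 did not overlap. It failed the filter, and in the fit without a filter its log2 fold change was 0.78 (standard error 0.348) with an adjusted p of 0.200 from limma. AC025259.3 overlaps exons of NR4A1 on the other strand and was not analysed here. Words of 50 bases shared with transcripts of other genes made up 0.895% of NR4A1 and 0.242% of IER5 and 0 of the other 8 members, so no member shares such words with another.

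Levels of different genes were compared per kilobase of exon. In shControl the order of mean normalized count per kilobase was IER3 at 9352, MYC at 2235, IER2 at 423.6, IER5 at 299.4, EGR1 at 248, NR4A1 at 50.5, EGR2 at 21.4, NR4A2 at 15.1, NR4A3 at 0.906 and EGR3 at 0.439. The ranges of IER2 (260.2 to 516.4), IER5 (209.8 to 344.8) and EGR1 (90.6 to 435.4) overlap between control libraries, as do those of EGR2 and NR4A2, so these neighbors are not ordered beyond their spread. In shRNF25 the levels per kilobase of IER3 and MYC were 2223 and 1327, closer together than in shControl. EGR1 (391) stood above IER5 (342.2) there, without overlap between their ranges.

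Ratios of (normalized count + 1) within a library were compared for the 9 pairs inside the 3 families. Library scaling cancels in them except at low counts, where the added 1 matters. Each pair had an exact permutation test whose smallest p is 0.1. The log2 ratio of EGR1 to EGR2 was 3.01, 2.69 and 3.62 across the shControl libraries against 4.62, 4.77 and 4.36 across the shRNF25 libraries. All 3 shRNF25 libraries exceeded all 3 shControl libraries. The difference was 1.48 on the log2 scale, with means of 3.11 ± 0.47 and 4.58 ± 0.21 (SD, n = 3; exact p = 0.1, adjusted p = 0.15 over the 9 pairs). EGR1 relative to EGR2 was thus higher in each knockdown library, although neither gene alone passed the test. The design cannot bring the exact p of this ratio below 0.1. Groups did not overlap for 42.5% of single tested genes, and the share over other gene pairs was not computed. The separation therefore does not set this pair apart.
The log2 ratio of IER3 to IER5 went from 3.36 ± 0.65 to 1.07 ± 0.10 (SD, n = 3), and that of IER2 to IER3 from -3.33 ± 0.80 to -0.79 ± 0.21, both without overlap and with the same exact and adjusted p. The differences of -2.29 and 2.54 on the log2 scale stand beside log2 fold changes of -2.06 for IER3, 0.23 for IER5 and 0.48 for IER2. IER2 to IER5 moved by 0.25, also without overlap, within a narrow range of -0.14 to 0.35 over all 6 libraries, and these 2 genes were low together in shControl replicate 1. NR4A1 to NR4A2 differed by -0.02 (exact p = 1). The ratios of NR4A1 and NR4A2 to NR4A3 differed by -0.74 and -0.71 without overlap, and rest on the few reads of NR4A3. With 5 added in place of 1 they differed by -0.49 and -0.47. The 2 ratios to EGR3 overlapped between the groups, and that of EGR1 differed by 0.19 with 1 added and by 0.53 with 5 added.

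**Figure D4:**
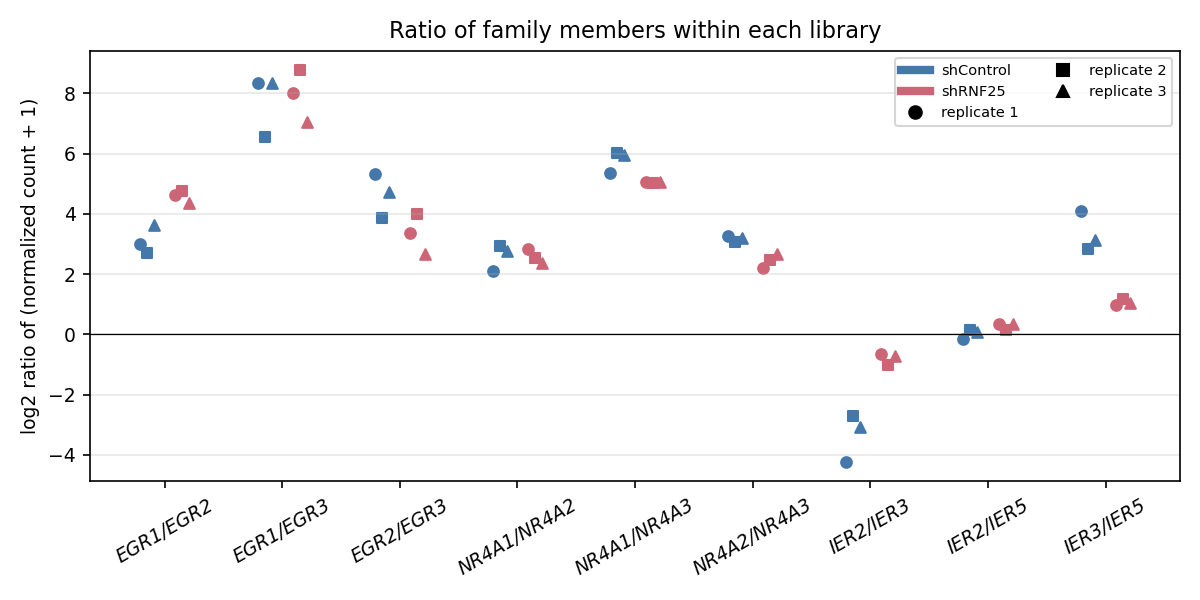
Log2 ratio of (normalized count + 1) between 2 members of a family within each library, for the 9 pairs, with shControl in blue, shRNF25 in red and a marker shape for each replicate. EGR1/EGR2 lies at 2.69 to 3.62 in shControl and at 4.36 to 4.77 in shRNF25, and the 2 ratios with IER3 against IER2 or IER5 are also separate.

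The wider class of immediate-early genes was read from a list of 35 other such genes, of which 34 were tested. In shRNF25, 4 were called higher and 5 lower, and 25 were not called, with a median log2 fold change of -0.24 over the 34. Over all tested genes 8.65% were called higher and 7.1% lower. With edgeR 3 of the list were called higher and 5 lower, and with DESeq2 4 and 5. At an unadjusted p below 0.05 from limma, 4 were higher and 11 lower. FOS, which is induced through the same SRF and ternary complex factor elements as EGR1, went from 157, 181.6 and 564.5 in shControl to 1883, 2088 and 2087 in shRNF25, a log2 fold change of 2.99 (adjusted p = 0.00114 from limma). FOSB rose by 2.51 (adjusted p = 0.00726), and the highest control library was replicate 3 for FOS, FOSB, EGR1 and EGR2 alike. CCN2, which encodes a matricellular protein, rose by 1.67. The fourth, ATF3, rose by 0.75 with an adjusted p of 0.0419.
The 3 largest falls were those of TIPARP, a mono-ADP-ribosyltransferase, at -1.07, CCN1, the matricellular relative of CCN2, at -1.01, and SGK1, a serum and glucocorticoid induced kinase, at -0.93. ZFP36L1 and NFKBIZ also fell. Beside these calls none of the tested EGR and NR4A genes was called in the main fit, and EGR3 and NR4A3 were not tested. Whether the change of FOS differs from that of EGR1 was not tested.

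Of the relatives and corepressors of the members, 5 were tested and none was called in either direction by limma, edgeR or DESeq2, while 0 had an unadjusted p below 0.05 in the higher and 3 in the lower direction. NAB1, which binds EGR proteins and represses them, was at 697.5, 648.4 and 576.3 in shControl and at 491.1, 443.3 and 463.2 in shRNF25, without overlap. Its log2 fold change of -0.46 had an adjusted p of 0.0257 from limma but stayed under 1.5-fold. Without shControl replicate 1 or 2, 1 gene of this list was called lower. NAB2, the corepressor that EGR1 itself induces, was at -0.40 (adjusted p = 0.211), with 304, 530.5 and 549.4 in shControl and 326.9 to 350.8 in shRNF25. IER5L at -0.49, WT1, a zinc finger factor with EGR-like fingers, at -0.55 and MYCL at -0.35 had adjusted p-values of 0.126, 0.0854 and 0.166. EGR4 had at most 2.73 normalized counts.

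In the MYC/MAX network all 10 genes were tested, 2 of them were called higher and 1 lower. The counts were the same with edgeR and DESeq2, beside 8.65% higher and 7.1% lower over all tested genes. MAX, the partner of MYC, was at 1835, 1537 and 1886 in shControl and at 1749, 1834 and 1818 in shRNF25, a log2 fold change of 0.04 (95% interval -0.21 to 0.30, adjusted p = 0.812 from limma). Calls among genes for proteins that compete with MYC for MAX went in both directions. MXD4 rose by 0.86 (adjusted p = 0.0127), from 440, 597.1 and 793.3 to 1153, 1042 and 1050.4. MXI1 fell by 1.27 on the log2 scale (adjusted p = 0.000961), from 654.4, 450.4 and 466.3 to 221.4, 198.6 and 221.1. MLXIPL (ChREBP), a glucose-sensing relative that pairs with MLX, rose by 0.76 (adjusted p = 0.0089). Without shRNF25 replicate 1 or 2, 1 gene of the network was called higher. MXD1 (-0.32), MXD3 (-0.25), MNT (-0.34), MGA (0.07), MLX (-0.10) and MLXIP (-0.14) were not called.
Of 25 genes that MYC is known to activate, all tested, 1 was called higher and 2 lower, with a median log2 fold change of -0.06. These counts stand beside 8.65% higher and 7.1% lower over all tested genes. With edgeR 2 were called higher and 1 lower, and with DESeq2 1 and 1. At an unadjusted p below 0.05 from limma, 3 were higher and 5 lower. LDHA, the lactate dehydrogenase subunit and also a hypoxia target, fell by 0.90 on the log2 scale, from 39977, 40993 and 41327 to 21401, 22096 and 22204. TFRC, the transferrin receptor, fell by 0.59 (adjusted p = 0.00315). PPAN, a ribosome biogenesis factor, rose by 1.30 (adjusted p = 0.019), and its lowest control value, 69.6 against 190.8 and 158.7, was again that of shControl replicate 1. The other 22 genes were not called. Among them ODC1 (0.56, adjusted p = 0.00846 from limma) and UBTF (0.38, adjusted p = 0.0267) were higher and PA2G4 (-0.54, adjusted p = 0.024) lower. Each stayed under 1.5-fold, with groups that did not overlap. Without shRNF25 replicate 2 or 3 no gene of this list was called higher, and without shControl replicate 1 or shRNF25 replicate 1 or 2 only 1 was called lower.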

How the data were processed

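RNA-seq was compared between 3 shRNF25 and 3 shControl libraries of SW839 cells, grouped by title. According to the paper, ribosomal RNA was depleted and a stranded kit was used. The paper tested with DESeq2. Here limma was the main test, chosen because the values were deposited as normalized counts, and DESeq2 on recovered reads was an alternative. The submitters' processing notes list fastp, HISAT2, HTSeq and GRCh38; versions, annotation and strand setting are not given in the sources used here. The authors deposited normalized counts, a signal that is fractional because counts were divided by 1 scaling factor per library (0.905 to 1.10). Dividing by each library's step returned whole reads for 100% of values (tolerance 0.01 reads, largest deviation 0.000121).

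Here log2(normalized count + 1) was fitted with limma 3.58.1 (lmFit, eBayes with trend) in R 4.3.3, without covariates, on genes that reached 10 in 3 or more libraries, and p-values were adjusted by Benjamini-Hochberg over all 16554 genes. Alternatives were other pseudocounts, filters, scalings and fold thresholds, edgeR 4.0.16 and DESeq2 1.42.0 on the recovered reads, weights by group, the replicate block and each library left out. The fits were tested on simulated data. Positions, exon lengths and 3′ UTRs came from GENCODE 29 by symbol. The members and lists were chosen with earlier results of these data known. All 10 members were named, of each list the relatives and MYC/MAX network in full, and otherwise up to 3 called rises and falls. ATF3 was the fourth rise of its list and ZFP36L1 and NFKBIZ further falls, named after their values were seen. The uncalled genes ODC1, UBTF and PA2G4 and the markers given were also named after their values were seen. SRF, RXRA and RXRB, which were not called, were named outside this rule as well.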

Additional observations from a re-analysis of the deposited data

How the results depend on the processing

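IER3 and MYC were below 0 and past the adjusted p threshold in each of the 16 settings run, at log2 fold changes from -2.20 to -1.86 and from -0.84 to -0.60. Of the members, 1 (EGR1) was called higher with the replicate block (0.93, adjusted p = 0.0462) and 1 with array weights by group (adjusted p = 0.0336). Leaving out 1 library gave 0 to 1 members higher and 2 to 3 lower, the third being EGR2 without shControl replicate 2. Requiring 2-fold left 1 lower member by construction. NR4A1 (-0.0702 to 0.101; -0.0406 without shRNF25 replicate 1), NR4A2 (-0.0500 to 0.203, and -0.0803 with quantile normalization) and IER5 (-0.00846 to 0.349) changed sign between fits that left out 1 library or used that scaling, always far from the threshold, and the cause was not tested. Taking the longest single transcript as the length moved the level per kilobase of NR4A1 to 105 and of MYC to 2835 and left the order of the 10 members as it was.

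Among all tested genes, 1432 were called higher and 1175 lower. A filter at 50 gave 898 higher among fewer genes tested, requiring 2-fold gave 893 and 513, no fold criterion gave 1785 lower, and leaving out 1 library gave 748 to 1725 higher, with fewest (748, 824 and 831) without shRNF25 replicates 1, 2 and 3, and 813 to 1269 lower. With each library left out in turn, a setting chosen after seeing the data, other immediate-early genes gave 3 to 4 higher and 4 to 6 lower, relatives and corepressors 0 to 1 lower, the MYC/MAX network 1 to 2 higher, and MYC-activated genes 0 to 2 higher and 1 to 3 lower. Same-numbered libraries of the groups share only a number: the correlations of their deviations from the group means were -0.06, -0.09 and 0.05, and the replicate block gave 1398 higher and 1193 lower genes. With few reads, EGR3 and NR4A3 could not be resolved at this depth.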

Other observations

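Lists of genes upstream of the immediate-early response are set beside all tested genes, of which 8.65% were called higher and 7.1% lower. Of 12 SRF, ternary complex and CREB factor genes, all tested, 0 were called higher (1 at an unadjusted p below 0.05; 0 with edgeR and 0 with DESeq2) and 1 was called lower by limma (1 with edgeR and 1 with DESeq2), with 6 lower at an unadjusted p below 0.05. The gene limma called was ELK3, a ternary complex factor that represses in the resting state, which went from 2263, 1261 and 1196 in shControl to 765.4, 784.1 and 717.7 in shRNF25 (log2 fold change -0.99, adjusted p = 0.012). SRF itself was at 2447, 2598 and 2871 in shControl and at 2069, 2263 and 2223 in shRNF25 (log2 fold change -0.27, adjusted p = 0.0998). Of 19 genes of the ERK cascade, all tested, 1 was called lower, the scaffold KSR1 at -0.69 (adjusted p = 0.0121), with 5 lower at an unadjusted p below 0.05, and 0 higher (1 at an unadjusted p below 0.05; 0 with edgeR and 0 with DESeq2).

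Of 8 genes for proteins that bind AU-rich elements, 1 was called lower, ZFP36L1 at -0.81 (adjusted p = 0.0293), which promotes decay of such transcripts, with 3 lower at an unadjusted p below 0.05, and 0 higher (1 at an unadjusted p below 0.05; 0 with edgeR and 0 with DESeq2). ZFP36L1 was at 6010, 2951 and 4162 in shControl and at 2354, 2617 and 2210 in shRNF25, below all control libraries. Of 8 genes for MYC turnover none was called by limma, edgeR or DESeq2 (0 higher and 1 lower at an unadjusted p below 0.05). Of the retinoid X receptors that pair with NR4A1 and NR4A2, RXRA and RXRB were tested and neither was called by any of the 3 tools, with 1 higher at an unadjusted p below 0.05 (RXRB, log2 fold change 0.50).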
